A study of Mus musculus with 5 samples.

Results

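The immediate early genes were followed in single-cell transcriptomes of mouse bone marrow progenitors and hematopoietic stem cells (HSCs). The 10 genes were chosen by name, Fos, Fosb, Jun, Junb, Jund, Egr1, Ier2, Dusp1, Zfp36 and Nr4a1, and all 10 were among the 15287 genes of the count table. The cells came from bone marrow of untreated mice of the strain Fgd5CreERT2/+Rosa26Tomato/+ at 20 weeks of age, a genotype shared by all groups. In this strain the Fgd5 locus carries ZsGreen together with CreERT2, so that green fluorescence marks cells with an active Fgd5 gene, and the Tomato allele stays silent without Tamoxifen. The first 3 libraries held lineage-negative c-kit positive cells that were also CD45.2 positive (Lin-kit+, here a, b and c). One library held such cells that were also ZsGreen positive (Fgd5+), and another held ZsGreen-positive cells with the Sca1+CD150+CD48- phenotype of HSCs (HSC-Fgd5+). Both ZsGreen-sorted libraries together are called reporter-positive.

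The libraries held 1339, 4095 and 6147 Lin-kit+ cells, 793 Fgd5+ cells and 519 HSC-Fgd5+ cells, with 2166655 to 36080242 unique molecular identifiers (UMIs) per library and medians of 3721 to 6567 per cell. Populations were assigned to the 5 barcode suffixes by their cell numbers, and title and source disagree in the labels of the reporter-positive samples on which of them had the HSC gate. The number of mice is not given, so n counts libraries, and p-values measure the spread between libraries, which may be technical. Each reporter-positive gate had 1 library, so the spread within that group also holds the difference between the gates. The markers of the gates separated the populations. Ly6a (Sca-1) stood at 12.9 to 15 CPM (a gene's UMIs per 1000000 UMIs of the library) in Lin-kit+ and at 264 and 267 CPM in the reporter-positive libraries, Slamf1 (CD150) at 1.90 to 3.37 against 35.7 and 38.3 CPM, and Cd48 at 188 to 199 against 6.24 and 1.85 CPM. Cd48 was thus low in Fgd5+ too, which had no CD48 gate, and 62 barcodes occurred in more than 1 library.

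Immediate early genes are transcribed within minutes of a stimulus from proteins already present in the cell, and their short-lived mRNAs fade again soon after. Fos and Jun family proteins pair as the transcription factor AP-1, Egr1 and Nr4a1 encode further transcription factors, and Dusp1 and Zfp36 encode brakes on the same response, a MAP kinase phosphatase and a protein that destabilises mRNAs with AU-rich elements. In blood formation, Egr1 and Nr4a1 are known from work on HSC quiescence, and Fos and Jun proteins from monocyte and mast cell differentiation. The same genes are also known to respond to tissue dissociation and cell sorting. Each population here had its own sort, so sort and population cannot be told apart.

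All 10 genes were higher in both reporter-positive libraries than in any of the 3 Lin-kit+ libraries, as the plot of levels by library shows. Summed over the 10 genes, the level was 345, 261 and 193 CPM in Lin-kit+ a, b and c, 779 CPM in Fgd5+ and 873 CPM in HSC-Fgd5+. In edgeR's quasi-likelihood test on UMIs summed per library, with p-values adjusted by Benjamini and Hochberg, 9 of the 10 passed an adjusted p of 0.05 as higher in the reporter-positive libraries and none as lower. Of all 11991 genes tested, 63.1% passed in either direction and 32.7% were higher, and the median log2 fold change of all genes was 0.07, against 1.28 for the 10. Scaling by library totals in place of TMM (trimmed mean of M values) moved the median of all genes to 0.60 and the split of calls from 3921 higher and 3646 lower to 6586 higher and 1993 lower, and the fold changes below are on the TMM scale. A library sum mixes cell types, so a larger share of cells that express a gene and more RNA per cell cannot be told apart in it.

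**Figure D1:**
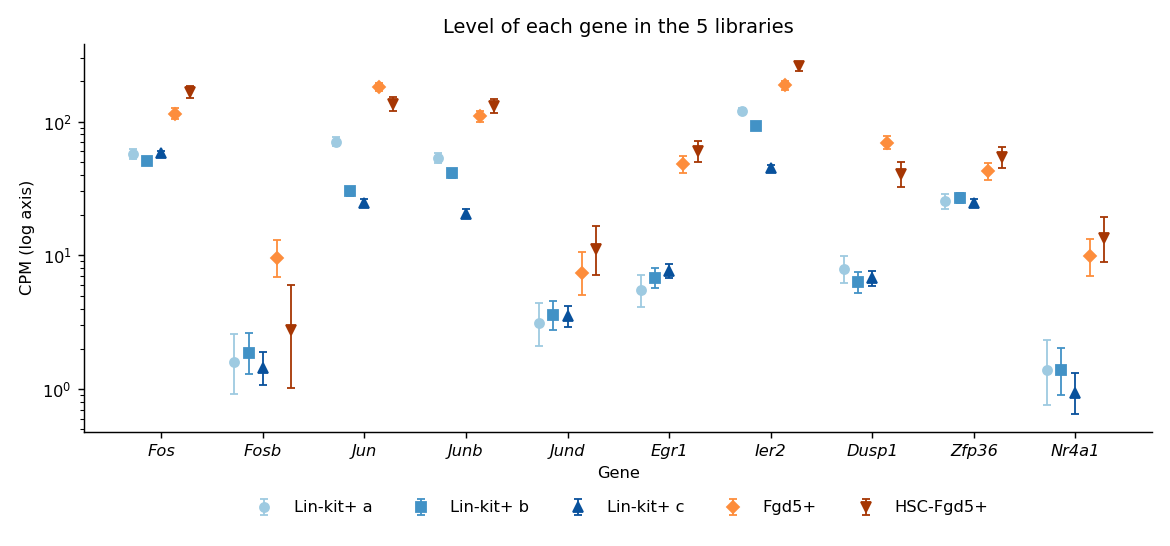
Level of each gene, in CPM on a log axis, in the 3 Lin-kit+ libraries (blue) and the 2 reporter-positive libraries (orange and brown), with exact 95% Poisson intervals that cover counting error only. Both reporter-positive points lie above all 3 Lin-kit+ points for each of the 10 genes, and Egr1, Dusp1 and Nr4a1 show the widest gaps.

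The transcription factors outside AP-1 and the phosphatase showed the largest differences. Egr1, a zinc finger factor, stood at 5.5, 6.80 and 7.59 CPM in Lin-kit+ a, b and c and at 47.7 and 60.0003 CPM in Fgd5+ and HSC-Fgd5+. The lower reporter-positive library was 6.29 times above the highest Lin-kit+ library, and the log2 fold change was 2.44 (SE 0.16, Benjamini-Hochberg adjusted p = 2.3e-05 in edgeR's quasi-likelihood test). Nr4a1, an orphan nuclear receptor, was scarce in Lin-kit+, with 1.4, 1.39 and 0.94 CPM from 14, 26 and 34 UMIs, and reached 9.84 and 13.4 CPM (41 and 29 UMIs) in the reporter-positive libraries. Its log2 fold change was 2.72 (SE 0.28, adjusted p = 0.00017 in the same edgeR test). Dusp1 stood at 7.90, 6.32 and 6.73 CPM against 69.6 and 40.6 CPM, a log2 fold change of 2.49 (SE 0.23, edgeR adjusted p = 0.0001). In the case of these 3 genes, the Lin-kit+ libraries lay within 1.49-fold of each other.

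Fos, whose protein forms AP-1 with Jun proteins, was even across the Lin-kit+ libraries, at 57.0, 51.1 and 58.1 CPM, and stood at 115 and 168 CPM in Fgd5+ and HSC-Fgd5+. The log2 fold change was 0.80 (SE 0.15, edgeR adjusted p = 0.0029). Fosb, its close relative, was near the detection limit, with 1.60, 1.87 and 1.44 CPM in Lin-kit+, 9.60 CPM (95% Poisson interval 6.86 to 13.1) in Fgd5+ and 2.77 CPM (1.02 to 6.03, 6 UMIs) in HSC-Fgd5+. Its call (log2 fold change 1.57, SE 0.44, edgeR adjusted p = 0.017) rested on Fgd5+. Without that library the log2 fold change was 0.21 with an edgeR adjusted p of 0.77.

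Jun stood at 70.6, 30.03 and 24.5 CPM in Lin-kit+ and at 182 and 135 CPM in the reporter-positive libraries (log2 fold change 1.42, SE 0.43, edgeR adjusted p = 0.024). Junb, a Jun protein that can oppose c-Jun, stood at 53.0, 41.0 and 20.5 against 110 and 131 CPM (1.13, SE 0.36, edgeR adjusted p = 0.027). Jund, the third Jun gene, was low throughout, at 3.10, 3.59 and 3.49 against 7.44 and 11.1 CPM (0.84, SE 0.23, edgeR adjusted p = 0.015). Of these 3 genes, Jund varied least and Jun most among the Lin-kit+ libraries, 1.16-fold and 2.88-fold between the highest and the lowest. Without HSC-Fgd5+ none of the 3 passed the threshold, with edgeR adjusted p of 0.052, 0.13 and 0.093, and without Fgd5+ Jun and Junb did not, with 0.16 and 0.085.

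Zfp36 showed the smallest difference, 25.4, 26.8 and 24.5 CPM against 42.5 and 54.0 CPM (log2 fold change 0.36, SE 0.12, edgeR adjusted p = 0.035). It passed the threshold in 4 of 11 alternative settings, and its adjusted p reached 0.23 without HSC-Fgd5+. Ier2, an immediate early gene whose product is a nuclear protein, had 120, 92.2 and 45.18 CPM in Lin-kit+ and 186 and 258 CPM in the reporter-positive libraries, without overlap. It missed the threshold (log2 fold change 0.83, SE 0.37, edgeR adjusted p = 0.087), and passed it in 4 of 11 settings, among them without Lin-kit+ a (adjusted p = 0.016) and without Lin-kit+ c (0.033).

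The reporter-positive libraries differed from each other for single genes, without a test because each gate had 1 library. Dusp1 had 69.6 CPM (95% Poisson interval 61.8 to 78.1) in Fgd5+ and 40.6 CPM (32.6 to 50.04) in HSC-Fgd5+, and Jun had 182 (169 to 196) and 135 CPM (120 to 151). Fos was higher in HSC-Fgd5+, with 168 CPM (151 to 186) against 115 CPM (105 to 125), as was Ier2, with 258 (237 to 280) against 186 CPM (173 to 200). The 3 genes Dusp1, Jun and Fosb, were thus higher in Fgd5+ and the other 7 in HSC-Fgd5+, and the intervals cover counting error only.

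The sequence before the start site is printed for 5 genes. Dusp1 and Nr4a1 were taken for their large differences, and Fos for the highest variance over mean between cells. Jun and Junb were taken because they varied between the Lin-kit+ libraries. RefSeq promoter entries (GRCm38.p6) were found for 8 of the 10 genes, and not for Egr1 and Ier2. Each line gives the 150 bases before the RefSeq start, 5′ to 3′ on the gene's strand. Capitals mark matches, on either strand, to the cyclic AMP response element TGACGTCA, its half-site TGACG, the GC box GGGCGG or the TATA box TATAAA.
Fos, chr12:85473740-85473889, plus strand: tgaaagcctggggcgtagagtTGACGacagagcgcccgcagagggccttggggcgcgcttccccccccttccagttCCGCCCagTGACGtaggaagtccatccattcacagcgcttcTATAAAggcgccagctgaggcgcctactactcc
Jun, chr4:95052223-95052372, minus strand: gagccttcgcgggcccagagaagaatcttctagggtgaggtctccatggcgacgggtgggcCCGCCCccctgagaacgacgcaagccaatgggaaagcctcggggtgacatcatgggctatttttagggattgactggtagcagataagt
Junb, chr8:84978749-84978898, minus strand: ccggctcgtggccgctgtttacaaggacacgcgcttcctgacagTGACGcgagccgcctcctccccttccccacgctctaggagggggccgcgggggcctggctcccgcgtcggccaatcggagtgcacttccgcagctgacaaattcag
Dusp1, chr17:26508473-26508622, minus strand: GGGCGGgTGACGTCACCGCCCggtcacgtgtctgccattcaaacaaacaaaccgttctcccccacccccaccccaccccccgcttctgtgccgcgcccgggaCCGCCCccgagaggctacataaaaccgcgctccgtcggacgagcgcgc
Nr4a1, chr15:101266696-101266845, plus strand: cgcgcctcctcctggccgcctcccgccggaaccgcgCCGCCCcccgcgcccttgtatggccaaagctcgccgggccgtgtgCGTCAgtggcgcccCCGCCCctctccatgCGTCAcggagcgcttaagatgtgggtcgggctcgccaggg

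Over windows from 250 bases before to 50 after the start, TGACG was found in 5 of the 8 promoters, those of Fos, Fosb, Junb, Dusp1 and Nr4a1, and in 20.8% of all 32851 RefSeq promoters. The full TGACGTCA, which contains the half-site, was found in that of Dusp1 alone, at position -143 from the start, and in 1.79% of all promoters. GGGCGG was found in 6 of the 8, against 35.7% of all. The CArG box, the site of serum response factor, was found by its name's pattern in that of Zfp36 at position -58, and in 1.63% of all promoters. TGACTCA, the consensus AP-1 site, was in none of the 8 and in 5.20% of all. Variants of that site were not searched. Jund, 1 of the 8, held none of these motifs, and its RefSeq start lies upstream of the gene in the annotation used here. Such matches describe letters in these windows, and no binding was measured. In the GENCODE M21 annotation of the same build, Fos has 4 exons at chr12:85473890-85477273, Egr1 has 2 and Zfp36 has 2, and Jun, Junb, Jund and Ier2 have a single exon.

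Most Lin-kit+ cells are committed progenitors, so the genes were next read in classes of cells. Cells were clustered without the 10 genes, their relatives and Fgd5, and clusters were named from marker lists. Neutrophil-like cells made up 33.1% ± 1.10 (SD, n = 3 libraries) of Lin-kit+ cells, monocyte-like cells 19.3% ± 1.3, lymphoid-primed multipotent-like cells 14.001% ± 0.39, erythroid-like cells 7.37% ± 0.53, megakaryocyte-like cells 5.02% ± 0.19 and mast or basophil-like cells 4.78% ± 0.23. HSC-like clusters held 98.4% and 98.7% of reporter-positive cells and 0.146% to 0.523% of Lin-kit+ cells. Each class was compared with the mean of the other 5 in edgeR's quasi-likelihood test, with the library as a block. Nr4a1 did not pass the filter on low counts there, so 9 of the 10 genes were among the 9309 tested. The heat map of levels by class shows the pattern.

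**Figure D2:**
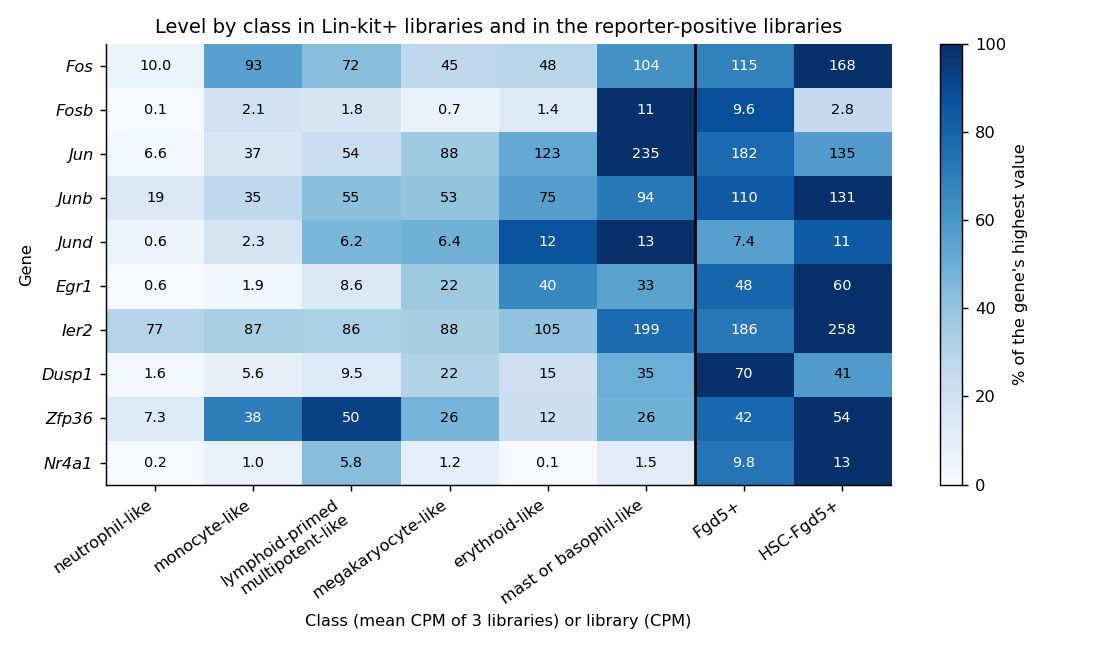
Level of each gene in 6 classes of Lin-kit+ cells (mean CPM of 3 libraries, printed in each field) and in the 2 reporter-positive libraries (CPM, right of the line), coloured as percent of the gene's highest value. Neutrophil-like cells are palest for 9 of the 10 genes, and mast or basophil-like cells have the highest class mean for 7 genes.

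Mast or basophil-like cells had the highest mean of 7 genes among the 6 classes, Fos, Fosb, Jun, Junb, Jund, Ier2 and Dusp1. For Fos and Jund they were highest in 2 of 3 libraries, with Fos at 75.0 CPM in library b against 93.1 CPM in monocyte-like cells, and Jund at 11.3 CPM in library a against 12.3 CPM in erythroid-like cells. In the test, 8 of the 9 genes were higher there and none was lower, where 26.4% of all genes passed, 15.8% as higher and 10.6% as lower. Jun stood at 235 CPM ± 169 (SD, n = 3 libraries), with 429, 152 and 124 CPM in Lin-kit+ a, b and c, and its log2 difference from the other classes was 2.39 (SE 0.12, edgeR adjusted p = 8.0e-25). The SD is large because library a stood apart, while in each library mast or basophil-like cells were above all other classes for Jun. Fosb had 11.3, 13.6 and 7.83 CPM there, and in no other class more than 2.96 CPM in any library (log2 difference 3.35, SE 0.49, edgeR adjusted p = 1.3e-07). Dusp1 had 45.1, 29.0 and 29.7 CPM (2.08, SE 0.21). Zfp36 was the exception, at 26.3 CPM ± 11.7 and with a log2 difference of 0.10 (SE 0.23, edgeR adjusted p = 0.80).

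Erythroid-like cells shared the high Egr1 and Jun. Of the 9 genes, 5 were higher and 2 lower, where 50.7% of all genes passed, 24% as higher and 26.8% as lower. Egr1 was even across libraries at 38.6, 40.8 and 39.3 CPM, the highest class mean, which overlapped that of mast or basophil-like cells (32.9 CPM ± 10.0), and its log2 difference was 2.47 (SE 0.16, edgeR adjusted p = 1.8e-19). Jund (1.37, SE 0.26), Jun (1.07, SE 0.11), Dusp1 (0.56, SE 0.20) and Junb (0.52, SE 0.11) were also higher. Zfp36 was lower by a log2 difference of -1.15 (SE 0.20) and Fos by -0.51 (SE 0.14). Without the library block, Fos (edgeR adjusted p = 0.16) and Junb (0.28) missed the threshold. The class held 2 clusters with opposite levels. The one of 590 Lin-kit+ cells with a median of 2583.5 UMIs had pooled levels of 192 CPM of Jun and 83.4 CPM of Egr1, and the one of 281 cells with a median of 8099 UMIs had 13.2 and 6.99 CPM.

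Megakaryocyte-like cells had more Egr1 (22.3 CPM ± 5.93, log2 difference 1.51, SE 0.23), Dusp1 (21.7 CPM ± 1.87, 1.18, SE 0.22) and Jun (0.45, SE 0.14), and less Ier2 (-0.54, SE 0.12). These were 3 higher and 1 lower of 9, where 29.8% of all genes passed, 15.4% as higher and 14.4% as lower. The Jun call was lost without Lin-kit+ a (edgeR adjusted p = 0.070), without Lin-kit+ b (0.15) and without the library block (0.53).

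Monocyte-like cells combined high Fos and Zfp36 with low Egr1 and Jun. Fos stood at 84.8, 93.1 and 101 CPM in libraries a, b and c (log2 difference 1.18, SE 0.08, edgeR adjusted p = 5.0e-19), above all 3 libraries of lymphoid-primed multipotent-like cells (59.8 to 78.3 CPM). Zfp36 stood at 38.1, 40.5 and 34.9 CPM (0.98, SE 0.10). The other 6 called genes were lower, Egr1 the most, at 1.22, 2.22 and 2.29 CPM (-2.43, SE 0.23, edgeR adjusted p = 1.2e-13). Thus 2 of 9 were higher and 6 lower, where 54.9% of all genes passed, 30.7% as higher and 24.2% as lower. Without the library block, 3 were lower, and Jun (edgeR adjusted p = 0.21), Junb (0.27) and Ier2 (0.76) were not.

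Lymphoid-primed multipotent-like cells, named from Flt3, Dntt and other early lymphoid genes, had the highest Zfp36 and Nr4a1 of the 6 classes. Zfp36 stood at 48.4, 49.3 and 53.6 CPM, above every library of every other class (log2 difference 1.35, SE 0.12, edgeR adjusted p = 7.9e-15). Nr4a1 stood at 7.78, 5.06 and 4.41 CPM, where no other class exceeded 2.82 CPM in any library, and was not tested. Of its 37 UMIs, 23 fell in the smaller of the 2 clusters of the class, 385 cells led by Dntt, Il7r and Ebf1 among others, with 25.9, 13.7 and 10.8 CPM. The larger, of 1220 cells, had 3.24, 1.89 and 2.65 CPM, close to the other classes. Fos was also higher (0.51, SE 0.10) and Ier2 lower (-0.52, SE 0.08), so that 2 of the 9 were higher and 1 lower, where 38.5% of all genes passed, 21.2% as higher and 17.3% as lower. The Ier2 call was lost without the library block (edgeR adjusted p = 0.47).

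Neutrophil-like cells were the lowest class for 9 of the 10 genes. In the test, 8 of the 9 were lower and none higher, where 66.1% of all genes passed, 32.9% as lower and 33.2% as higher. Egr1 had 0.31 to 0.78 CPM (log2 difference -3.89, SE 0.25), Fosb 0 to 0.30 CPM (-3.28, SE 0.68), Jun 4.33 to 9.90 CPM (-3.02, SE 0.12) and Fos 8.67 to 11.4 CPM (-2.13, SE 0.12). Ier2 was the exception, at 76.7 CPM ± 30.6, which overlapped 4 of the other 5 classes and lay below mast or basophil-like cells (105.7 to 271 CPM), with a log2 difference of 0.08 (SE 0.06, edgeR adjusted p = 0.23). Its direction depended on the scaling, with a log2 difference of -0.42 on library totals (edgeR adjusted p = 1.3e-08). The median UMIs per cell were 5477 in this class, above the 3478 of mast or basophil-like cells.

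Against these classes, both reporter-positive libraries were above all 3 Lin-kit+ libraries of each of the 6 classes for Egr1 and Nr4a1. For Fos, Ier2, Dusp1 and Zfp36 this held against 5 of the 6 classes, for Fosb and Junb against 4, and for Jun and Jund against 3. Jund was the 1 gene with a class, mast or basophil-like cells (11.3 to 15.3 CPM), above both reporter-positive libraries in all its libraries. Cells without a class name, 15.7% ± 1.37 (SD, n = 3 libraries) of Lin-kit+ cells, are left out of this ranking. Among them, a cluster of 26 cells led by Jchain had more pooled Egr1, Fos, Junb and Zfp36 than both reporter-positive libraries. A larger cluster led by Cd74 had more pooled Fos and Zfp36 than these libraries, and both clusters are described at the end. The HSC-like Lin-kit+ cells lay outside the 6 classes as well. As a closer comparison, the reporter-positive libraries were set against the lymphoid-primed multipotent-like cells of Lin-kit+, a choice made after the data were seen because only 7, 9 and 9 Lin-kit+ cells fell into HSC-like clusters. Of the 9 genes that passed the filter, 6 were higher and none lower, where 44.9% of the 9884 genes tested passed in either direction and 23.6% were higher.

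**Figure D3:**
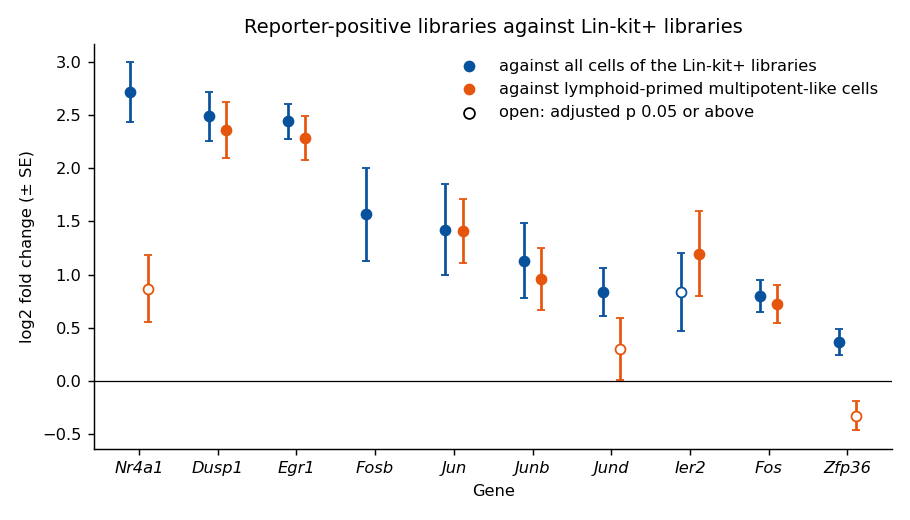
Log2 fold change with its SE for the reporter-positive libraries against all Lin-kit+ cells (blue) and against their lymphoid-primed multipotent-like cells (orange), from edgeR. Filled points passed an adjusted p of 0.05, and Nr4a1 and Zfp36 moved most between the comparisons, from 2.72 to 0.87 and from 0.36 to -0.33.

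Dusp1 (log2 fold change 2.36, SE 0.26, edgeR adjusted p = 0.00017), Egr1 (2.29, SE 0.21, 6.1e-05) and Jun (1.41, SE 0.30, 0.0049) differed from the lymphoid-primed multipotent-like cells about as much as from all Lin-kit+ cells. Ier2 (1.20, SE 0.40, edgeR adjusted p = 0.038), Junb (0.96, SE 0.29, 0.026) and Fos (0.72, SE 0.18, 0.0098) passed as well, and each of these 3 missed the threshold without HSC-Fgd5+, at 0.14, 0.092 and 0.091. Nr4a1 (0.87, SE 0.32, edgeR adjusted p = 0.052), Jund (0.30, SE 0.29, 0.44) and Zfp36 (-0.33, SE 0.14, 0.085) did not pass. Both comparisons share the reporter-positive libraries. The HSC-like Lin-kit+ cells themselves gave 5 UMIs of Fos, 6 of Egr1, 12 of Ier2 and 0 of Nr4a1 in 25 cells. Pooled, these were 70.3 CPM of Fos, 84.4 CPM of Egr1 and 169 CPM of Ier2. Egr1, with 5 of its 6 UMIs from library c, and Jund (28.1 CPM, 2 UMIs) lay above both reporter-positive libraries. The other genes lay below both. None of the 10 genes passed the filter for a test against these cells.

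The Lin-kit+ libraries, which share a source label but not a title, differed from each other by more than 2-fold for 3 of the 10 genes. Their titles carry numbers of unstated meaning, and their cell numbers rose from a to c (1339, 4095 and 6147). Jun, Junb and Ier2 were 2.88-fold, 2.59-fold and 2.65-fold higher in library a than in library c, with b between, while the ratio of a to c was 0.98 for Fos, 1.04 for Zfp36, 1.17 for Dusp1 and 0.72 for Egr1. The order a over b over c held in each of the 6 classes for Junb and Ier2 and in 5 of 6 for Jun, which was higher in a than in c in all 6. For Ier2 the ratio of a to c ran from 2.39 to 3.75 over the classes.

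**Figure D4:**
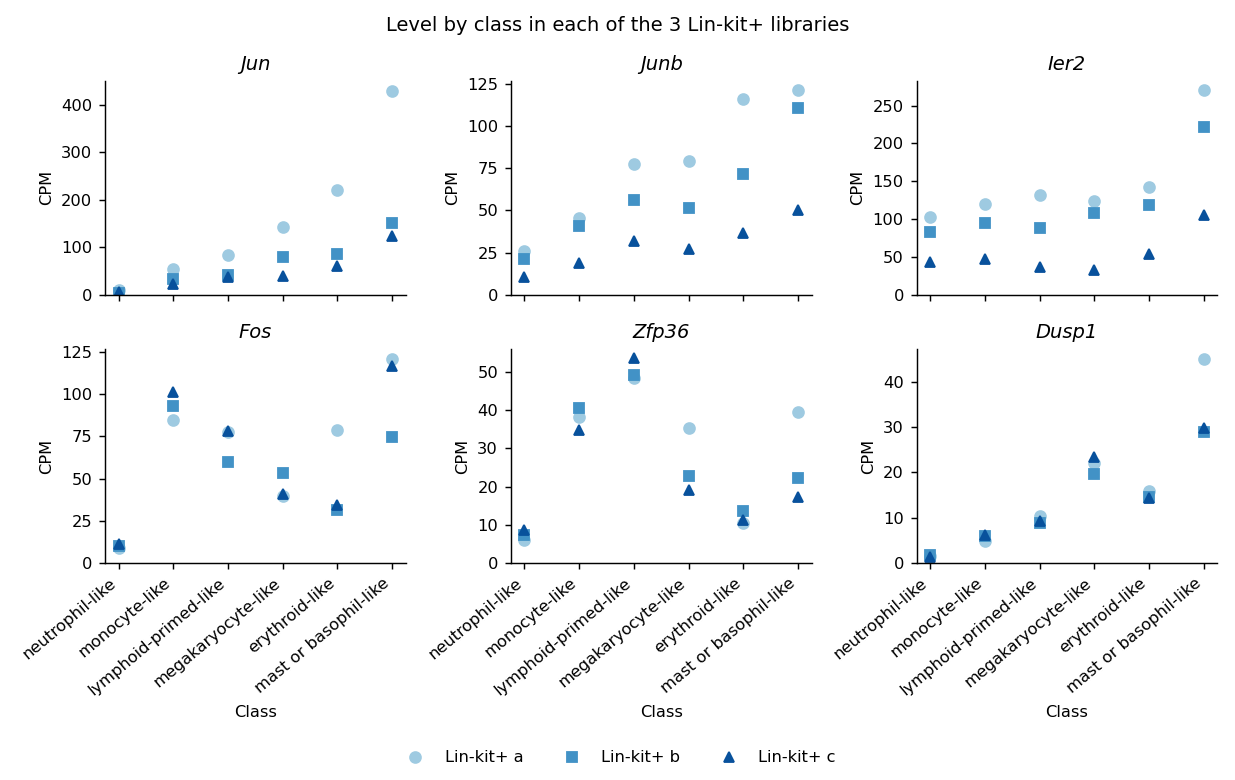
Level in CPM of 6 genes by class in Lin-kit+ libraries a (circles), b (squares) and c (triangles), from 0. In the upper row, Jun, Junb and Ier2 are highest in library a and lowest in c in nearly all classes, and in the lower row Fos, Zfp36 and Dusp1 show no such order.

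Few genes showed the pattern of Jun, Junb and Ier2. Among 8085 genes with at least 300 UMIs in the Lin-kit+ libraries, 272 (3.36%) were at least 2-fold higher in a than in c, and 14 (0.173%) at least 2-fold higher in c. Library b lay between in 271 of the 272. The median GC content of the longest coding transcripts was 54.2% for those genes and 49.6% for all, and the transcripts of Jun, Junb and Ier2 held 55.5%, 62.6% and 60.9%, but also Egr1, which went the other way, 57.3%. The 272 genes stood in the median at 1.46 times the level of library a in the reporter-positive libraries and at 3.95 times that of library c, against 1.24 and 1.28 for all genes. The 272 were chosen as higher in a than in c, which by itself raises the ratio to c over that to a. Without Lin-kit+ a, the log2 fold change of the reporter-positive libraries was 1.97 for Jun, 1.39 for Junb and 1.10 for Ier2, and without Lin-kit+ c it was 1.16, 0.82 and 0.52. The cause was not tested.

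Between cells of a library, the UMIs were unevenly spread, Fos most of all by variance over mean. Each cell was thinned to 1000 UMIs to compare cells of different depth. The Fano factor (variance over mean, 1 for random counts) of Fos was 1.56 to 1.75 in the Lin-kit+ libraries, 1.93 in Fgd5+ and 2.39 in HSC-Fgd5+. It was taken over all cells of a library, so in Lin-kit+ it also holds differences between classes. The mean of Fos was higher in the reporter-positive libraries, and the factor was not adjusted for the mean. In the counts as deposited, the 10% of cells with most Fos held 73.5% to 83.7% of its UMIs, and single cells reached 17, 13, 15, 20 and 21 UMIs in the 5 libraries. In HSC-Fgd5+, Fos was seen in 21.8% of cells at a mean of 3.21 UMIs per positive cell, and Ier2 in 44.3% at 2.43. Zfp36, by comparison, had Fano factors from 1.07 to 1.19. The share held by the top 10% of cells also rises where few cells show a gene. For Zfp36 it was 74.0%, 99.4% and 86.5% in Lin-kit+ a, b and c, above that of Fos in each. In Fgd5+ and HSC-Fgd5+ it was 71.2% and 70.9%, below that of Fos. The genes with few UMIs, Fosb, Jund and Nr4a1, had factors near 1, from 0.988 to 1.08, where unevenness was not detectable at this depth.

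After thinning, 45.02% of Fgd5+ and 44.6% of HSC-Fgd5+ cells had a UMI of at least 1 of the 10 genes, against 26.1%, 23.1% and 17.5% in Lin-kit+ a, b and c. Without thinning these shares were 82.7% and 72.4% against 71.5%, 55.1% and 51.2%. For single genes, the thinned share of Jun was 15.6% and 11.0% in the reporter-positive libraries, 16.9% in mast or basophil-like cells and 0.412% in neutrophil-like cells. The last 2 come from the Lin-kit+ libraries, and UMIs from free RNA were not measured in the reporter-positive ones. Fos was seen in 7.94%, 10.6%, 8.11% and 0.721%, Egr1 in 4.04%, 6.26%, 3.42% and 0.103% of these cells in the same order.

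The genes tended to be seen in the same cells. Of the 45 pairs, 3 to 13 per library had at least 5 cells expected with both genes after thinning, and the odds ratio of co-detection was above 1 for all of these pairs in each library. The medians were 2.05, 2.80 and 1.71 in Lin-kit+ a, b and c, 1.92 in Fgd5+ and 1.77 in HSC-Fgd5+. Within clusters the medians were 2.03, 1.85, 1.42, 1.80 and 1.75. The highest value of each library was 3.42 for Jun with Ier2 in Lin-kit+ a, 3.32 for Junb with Zfp36 in b, 4.08 for Fos with Zfp36 in c, 3.48 for Jun with Egr1 in Fgd5+ and 3.05 for Fos with Jun in HSC-Fgd5+. Without thinning, 25 of 27 such pairs were above 1 in Lin-kit+ b and 40 of 41 in Fgd5+, and all in the other libraries. Cells with UMIs of 3 or more of the genes made up 4.92% of Fgd5+ and 6.65% of HSC-Fgd5+ cells after thinning, against 1.12%, 1.10% and 0.472% in Lin-kit+. Cells of a library are no replicates, so these values are given without a test. Pairs of other genes were not counted, so whether such values are particular to these genes is not known.

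Depth and cell division moved with the level. In all 3 Lin-kit+ libraries the summed CPM was highest in the shallowest of 4 equal groups of cells by UMI total, 535, 568 and 412 CPM, and 305, 211 and 143 CPM in the deepest. From the shallowest to the deepest group it was 875, 901, 895 and 638 CPM in Fgd5+ and 752, 812, 1038 and 821 CPM in HSC-Fgd5+, without such an order. The groups were formed over all cells of a library, not within classes. In Lin-kit+, mast or basophil-like and erythroid-like cells, with medians of 3478 and 3398 UMIs, were shallower than neutrophil-like cells. Depth and class can thus not be told apart there, while nearly all reporter-positive cells were HSC-like. Cells with no UMI of 12 cell division genes had 822, 495 and 411 CPM in Lin-kit+ a, b and c, and cells with 3 or more such UMIs had 276, 211 and 158 CPM. The values were 862 and 533 CPM in Fgd5+ and 992 and 317 CPM in HSC-Fgd5+. The cells with division UMIs were also deeper, with medians of 8049, 5326, 6586.5, 9290 and 9106 UMIs in the 5 libraries against 4100, 2512, 3037, 4017 and 3451.5. Among cells without division UMIs, Lin-kit+ a (822 CPM) came close to Fgd5+ (862 CPM). Lin-kit+ b (495 CPM) and c (411 CPM) stayed well below both reporter-positive libraries. The division genes themselves summed to 1225, 1214 and 1328 CPM in Lin-kit+ against 598 and 720 CPM, with 12 of 12 lower in the reporter-positive libraries, where 30.4% of all genes were lower. Their part in the differences between populations was not tested.

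**Figure D5:**
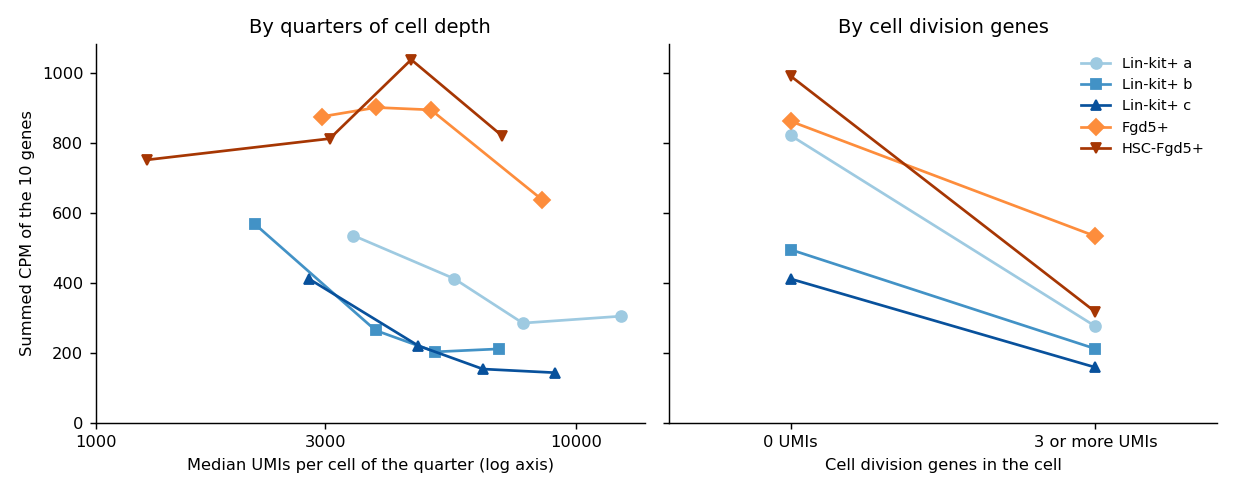
Summed CPM of the 10 genes in 4 equal groups of cells by UMI total (left, median UMIs of each group on a log axis) and in cells with 0 or with 3 or more UMIs of 12 cell division genes (right), for the 5 libraries. In the Lin-kit+ libraries the level is highest in the shallowest cells, and in all 5 libraries it is lower in cells with division UMIs. Groups were formed over all cells of a library, not within classes.

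Among reporter-positive cells, a small HSC-like cluster led by Ptn, Hist1h2ae, H1f0 and H2afx among others held 46 Fgd5+ and 26 HSC-Fgd5+ cells, with medians of 10215 and 9996.5 UMIs. The large one held 734 and 486, with 4202 and 3604. In HSC-Fgd5+, Fos was at 22.5 CPM (95% Poisson interval 8.24 to 48.9) in the small cluster and at 190 CPM (170 to 210) in the large one. In Fgd5+ the same values were 115 (87.3 to 149) and 117 CPM (106 to 129). Junb was lower in the small cluster of both, 50.6 against 120 CPM and 52.4 against 144 CPM, as was Ier2, 109 against 201 CPM and 71.1 against 286 CPM. The large cluster alone had levels of Egr1 of 49.2 and 66.8 CPM, close to those of the whole libraries. By mitochondrial share, the summed level was 600 CPM in the lowest and 842 CPM in the highest of 4 groups of Fgd5+ cells, and 922 and 566 CPM in HSC-Fgd5+, whose highest group had a median share of 13.96%.

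Other genes of the same response were read from lists. Of 26 other immediate early genes tested, 17 were higher and 6 lower in the reporter-positive libraries, with a median log2 fold change of 1.06, where 32.7% of all genes were higher and 30.4% lower. Ppp1r15a, a phosphatase subunit of the stress response, had 18.8 to 20.0 CPM in Lin-kit+ and 119 and 130 CPM in the reporter-positive libraries (2.16, SE 0.08, edgeR adjusted p = 3.6e-06), and Gadd45g 6.58 to 6.85 against 31.4 and 43.8 CPM (1.93, SE 0.16). Csrnp1 was also higher (1.82, SE 0.35). Klf4, a factor of monocyte differentiation, went the other way, from 14.9 to 16.1 CPM down to 3.36 and 2.77 CPM (-2.84, SE 0.18, edgeR adjusted p = 1.8e-05), as did the antiproliferative Btg2 (-1.303, SE 0.10) and Gadd45b (-1.28, SE 0.12).

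Of 11 AP-1 relatives tested, 4 were higher, 4 lower and 3 did not pass, shares near those of all genes (32.7% higher and 30.4% lower). Batf2 rose from 0.32 to 0.69 CPM in Lin-kit+ to 9.60 and 12.9 CPM (log2 fold change 3.83, SE 0.34, edgeR adjusted p = 8.3e-05), and Batf from 28.1 to 28.5 to 55.4 and 50.8 CPM (0.38, SE 0.09). Batf3, a factor of dendritic cells, was lower, with 5.04 to 8.40 CPM against 0.72 and 0 CPM (-4.32, SE 0.65), and so was Fosl2 (-1.55, SE 0.27). Atf4 passed as lower (-0.55, SE 0.08) on the TMM scale at nearly equal CPM, 77.7 to 84.4 against 76.8 and 84.0.

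Of 23 kinases and factors upstream in the MAP kinase and serum response pathway, 8 were higher, 5 lower and 10 did not pass, where 63.1% of all genes passed and 32.7% were higher. Mkl2, a coactivator of serum response factor, had 3.40 to 3.88 against 19.4 and 22.2 CPM (1.96, SE 0.15), and Elk3, a ternary complex factor, 5.52 to 6.90 against 24.7 and 18.0 CPM (1.298, SE 0.19). Map2k2 differed between the reporter-positive libraries, 120 CPM in Fgd5+ and 31.4 CPM in HSC-Fgd5+. Rps6ka1 (-0.94, SE 0.12), Map2k6 (-0.59, SE 0.20) and Mapk3 (-0.53, SE 0.08) passed as lower on the TMM scale, the last 2 at nearly equal CPM. Of 9 heat shock genes tested, members of another stress response, 1 was higher and 7 were lower (median -0.38), where 32.7% of all genes were higher and 30.4% lower. Bag3 was the higher one (0.89, SE 0.21), and Hspe1 (-1.23, SE 0.07), Hspd1 (-0.99, SE 0.09) and Hsp90aa1 (-0.86, SE 0.08) fell most.

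Across 20 profiles, the 6 classes of each Lin-kit+ library and the 2 reporter-positive libraries, the level of Dusp1 (log2(CPM + 1), Pearson r = 0.94) and Jun (0.93) followed the mean of the 10 genes most closely and Nr4a1 (0.59), Zfp36 (0.62) and Ier2 (0.63) least. Of 6879 other genes compared, Ifitm1, H2-T23, Mettl7a1, Rcn3 and Ngly1 followed that mean with r from 0.93 to 0.96. The mean includes each of the 10 genes itself, which raises its r, and none of the other genes. The profiles share libraries and cell types, so these are descriptions. Between cells of the same cluster and library, of 6385 genes Ppp1r15a came first with a mean r of 0.19 (0.33 within Fgd5+), and H3f3b, Btg2, Nfkbia and Ier3 had 0.15 to 0.17. Klf6, B2m, H2-D1 and Ubb had 0.13 to 0.14. These correlations over 12893 cells are weak and share cell depth.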

How the data were processed

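Per the labels, libraries were made with the Chromium 3' v2 kit, and the submitters' processing notes name Cell Ranger 1.3 and 2.1, Seurat 2.3.4 and the build mm10. The authors deposited 1 table of unnormalized UMI counts, with 12893 cells as columns, and these counts were used as deposited. The 5 barcode suffixes were matched to libraries through the numbers of cells that the study gives per population. The 10 genes and all lists were chosen with earlier results of these data known.

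Counts were summed per library, or per library and class, and tested with edgeR 4.0.16 (TMM, filterByExpr, quasi-likelihood test, two-sided, R 4.3.3), adjusted by the Benjamini-Hochberg method over all genes tested, with DESeq2 1.42.0 as an alternative. Classes of the same Lin-kit+ library come from the same sample, so the library was a block between classes. The test was also run on simulated data with equal numbers of raised and lowered genes, and no result given here rests on that run. Clusters used 2000 variable genes, 20 components, 15 neighbours and Leiden at resolution 1 (leidenalg 0.10.2, scanpy 1.11.5, numpy 2.4.6, scipy 1.17.1, Python 3.11.15). A cluster was named from at least 3 markers with a fold of at least 2, detected in 10% of its cells. Scrublet called 165 cells (1.28%) doublets, which were kept, as were all cells. Poisson and Wilson 95% intervals cover counting error only. All 10 genes are named in the text. From each other list, up to 3 genes each way with the largest change past the threshold and at least 100 UMIs are named. The genes of most similar pattern are the 5 with the highest correlation over profiles, of those with at least 500 UMIs, and the 10 with the highest over cells, of those seen in at least 5% of cells. Of the latter, 1 is not reported here. Depth ran from 2166655 to 36080242 UMIs per library, so a gene with 3 UMIs or fewer in a library is at its floor. Alternatives covered scaling, filters, doublets, clustering, cell numbers and each library left out.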

Additional observations from a re-analysis of the deposited data

How the results depend on the processing

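No paired analysis was possible because the labels number no replicates, and numbers given in accession order do not pair samples. In the comparison of reporter-positive with Lin-kit+ libraries, no alternative turned a direction for the 10 genes. Egr1, Dusp1, Nr4a1 and Fos passed the threshold in all 11 alternatives, Fosb in 9 of 10, Junb and Jund in 8, Jun in 7, and Zfp36 and Ier2 in 4. With 1 library left out, 5 (without HSC-Fgd5+) to 9 of the 10 were called higher. Against the 25 HSC-like Lin-kit+ cells edgeR called 0 of 353 genes (20 at an unadjusted p under 0.05, and 0 called by DESeq2), 56 without a filter on low counts and 0 to 44 with 1 library left out. Of the 10 genes, Jun alone was called there, without the filter and without Lin-kit+ c, and with 1 library left out the count ran from 0 to 1.

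Between classes, leaving out 1 library gave 2206 to 3425 called genes for lymphoid-primed multipotent-like cells (3583 with all), 3137 to 4647 for erythroid-like (4721), 1596 to 2536 for megakaryocyte-like (2774) and 1398 to 2204 for mast or basophil-like cells (2456), the lowest each time without Lin-kit+ c, where fewer cells remained. Of the 9 genes, 1 to 2 were lower in erythroid-like cells with 1 library left out and 1 with DESeq2, against 2. In megakaryocyte-like cells 1 to 2 were lower with 1 library left out, 2 without a filter on low counts and 2 with a filter on cells, against 1. In neutrophil-like cells 1 gene was higher without the filter and 1 at clustering resolution 2, against 0. Without the replicate block, the genes called lower numbered 0 in lymphoid-primed multipotent-like, 1 in erythroid-like, 0 in megakaryocyte-like and 3 in monocyte-like cells, against 1, 2, 1 and 6.

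Between classes, directions turned only for genes that had missed the threshold in that class. In lymphoid-primed multipotent-like cells, the log2 difference of Fosb was -0.22 to 0.56 with 1 library left out and -0.086 at resolution 2, where Junb was -0.038 and Jund -0.024. Egr1 was -0.18 to 0.053 with 1 library left out, 0.13 with library totals, 0.13 without doublets and 0.12 at resolution 0.5. In erythroid-like cells, Fosb was -0.62 to 0.76 with 1 library left out and -0.0024 at resolution 2, and Ier2 was -0.039 to 0.023 with 1 library left out, 0.090 with library totals and 0.033 at resolution 0.5. In megakaryocyte-like cells, Junb was 0.10 with library totals and 0.16 at resolution 2, and Zfp36 was 0.15 with library totals and -0.26 to 0.14 with 1 library left out. Zfp36 in mast or basophil-like cells was -0.12 to 0.42 with 1 library left out. Ier2 in neutrophil-like cells was -0.42 with library totals (edgeR adjusted p = 1.3e-08) and -0.030 to 0.14 with 1 library left out. The causes were not tested.

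Without thinning, the share of cells with a UMI of the 10 genes was 71.5%, 55.1% and 51.2% in Lin-kit+ a, b and c, 82.7% in Fgd5+ and 72.4% in HSC-Fgd5+, and the median odds ratios of co-detection were 3.14, 2.103, 2.32, 2.63 and 3.68. Within clusters, an alternative added after the data were seen, the median for Lin-kit+ b was 1.85. Leaving out doublets for levels and the comparison with lymphoid-primed multipotent-like cells were also added after the data were seen.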

Other observations

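The highest pooled Fos of Lin-kit+ cells was in 2 clusters without a class name, while all cells without a class name had 83.0 CPM. A cluster of 26 cells led by Jchain and Mzb1, genes known from antibody-secreting cells, gave 112 Fos UMIs, a pooled level of 1428 CPM, with Fos seen in 80.8% of its cells. The same cells had 102 CPM of Egr1 (8 UMIs), 153 CPM of Jun (12 UMIs), 166 CPM of Junb (13 UMIs) and 102 CPM of Zfp36 (8 UMIs). A cluster of 533 Lin-kit+ cells led by Cd74, H2-Aa and Ifi205, with equal numbers of monocyte and dendritic markers, had 206 CPM of Fos and 104 CPM of Zfp36 next to 28.2 CPM of Jun and 7.19 CPM of Egr1. Among the Lin-kit+ cells of the 20 clusters, Fos was thus highest in these 2, which stood outside the 6 classes, and no test was run on them.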
